A study of Mus musculus with 6 samples.

Results

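Transcripts of the actin, podosome and adhesion machinery were followed in LPS-treated macrophages with and without an antibody against the membrane protease MMP14. The set holds 37 genes named by symbol for their role in building branched actin filaments and attaching them to integrins, and all 37 were among the 40773 gene symbols measured. The cells were RAW264.7, an established line of mouse macrophages, so every library shares 1 genetic background. In 1 group, 3 cultures received lipopolysaccharide (LPS, a bacterial cell wall component) at 100 ng/mL for 24 h. In the other, 3 cultures received the same LPS together with 3A2, an MMP14-neutralizing antibody, at 50 µg/mL for 24 h. The labels call the cultures biological triplicates and give the genotype as plain. All 6 cultures received LPS, and cells without LPS or with a control antibody were not analysed here, so the comparison asks only what the antibody changed in LPS-treated cells.

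Macrophages attach to their substrate through podosomes, which are dot-shaped contacts with a core of branched actin surrounded by a ring of integrin adaptor proteins. The core is built by the Arp2/3 complex, which nucleates new filaments on the side of existing ones when a protein of the WASP family, acting downstream of the GTPase Cdc42, switches it on. Talin, kindlin and vinculin join the filaments to integrins in the ring, and Src family kinases and Tks scaffold proteins act at the same site, where MMP14 is known to be delivered to cut the matrix.

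Libraries held 6060732 to 7432553 counts, and 11498 genes passed the filter on low counts. Of the 37 genes, 36 passed it and Cttn did not. Together the 37 genes took 2.01% to 2.21% of the counts of a library, or 2.11% ± 0.0543 with LPS and 2.11% ± 0.0998 with 3A2 (SD, n = 3). Mmp14, which encodes the antibody's target, was near the detection limit, with counts of 1, 5 and 0 for LPS and 2, 6 and 3 for 3A2. Divided by the total counts, 3A2 over LPS came to 2.02, and counting error alone allowed 0.684 to 6.64. As the antibody binds the protein, the mRNA of Mmp14 does not check the treatment. Markers of macrophages were abundant: 9 of the 10 listed were tested, and the list had a sum of 7184 to 7299 CPM (read counts scaled to the library total) with LPS and 6182 to 6637 CPM under 3A2. These sums did not overlap between the groups, and 8 of the 9 tested markers lay below 0. Of all genes taken singly, 12.3% did not overlap between the groups and 50.4% lay above 0. The sums themselves were not tested between the groups, nor was their part in the results below. Markers of fibroblasts and smooth muscle summed to at most 4.51 CPM, of neutrophils and mast cells to at most 7.45 CPM, of epithelium and endothelium to at most 2.64 CPM and of lymphocytes to at most 0.673 CPM. Epcam, Krt8, Cd3e and Ly6g were at 0 in all 6 libraries. LPS plus 3A2 replicate 3 stood apart: mitochondrially encoded mRNAs took 3.06% of its counts, against 2.18% to 2.54% in the other 5 libraries. The group means were 2.27% ± 0.0705 with LPS and 2.60% ± 0.439 with 3A2 (SD, n = 3), all 13 of these mRNAs lay above 0, and replicate 1 with 3A2, at 2.54%, also lay above every LPS library.

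No gene of the machinery passed the test between the groups, and most were bounded to small differences. By edgeR's quasi-likelihood test 0 of 36 genes had a Benjamini-Hochberg adjusted p under 0.05, where 0% of all 11498 genes did, and DESeq2 and limma-voom also called 0 of the 36. The smallest adjusted p was 0.719. Before adjustment, 3 of the 36 had a p under 0.05, Actg1 and Actr3 higher and Myh9 lower with 3A2, against 6.51% of all genes (3.43% higher and 3.09% lower). The groups did not overlap for 6 of the 36, against 12.3% of all genes. Those higher were Actg1, Actr3 and Rhoa (5.84% of all genes were higher in this way), and those lower were Arpc1b, Myh9 and Lcp1 (6.46%). Of the 36 genes, 16 had a log2 fold change above 0 and 20 below it (50.4% of all genes lay above 0). Their median log2 fold change was -0.014, against 0.0017 over all genes. The sign of that median turned without LPS replicate 3 (0.00027), with LPS plus 3A2 replicate 3 left out (0.016), and with the GC trend described below removed (0.015). Fold changes, written as LPS plus 3A2 over LPS, ran from 0.898 for Was to 1.14 for Actg1. For 34 of the 36 genes the whole 95% interval fell between a 1.25-fold decrease and a 1.25-fold increase, the exceptions being Actr2 and Was. That was so for 42.8% of all genes, and for 68.3% of those with a mean of at least 20 CPM. Within 1.5-fold lay all 36 intervals and 79.6% of those of all genes. In bulk RNA, fewer cells of a type and less RNA per cell cannot be told apart.

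Single libraries moved these counts. The number of the 36 genes with an unadjusted p under 0.05 by edgeR was 1 without LPS replicate 1 (5.6% of all genes), 1 without LPS replicate 2 (3.92%) and 1 without LPS replicate 3 (4.21%). It was 3 without LPS plus 3A2 replicate 1 (5.48%), 10 without replicate 2 (15%) and 2 without replicate 3 (5.62%). The groups did not overlap for 9, 7 and 6 genes when LPS replicates 1, 2 and 3 were left out (22.8%, 19.8% and 20.1% of all genes). With LPS plus 3A2 replicates 1, 2 and 3 left out, the numbers were 8, 17 and 7 (20.8%, 31.3% and 21.6%). With no filter on low counts, 6 genes of the set had an unadjusted p under 0.05 (6.16% of all genes), with DESeq2 1 (3.3%) and with the replicate number as a block 1 (5.32%). None of the 36 passed the adjusted threshold in these fits, where the share of all genes that passed was 0.088% with no filter, 0.0087% with the block, 0.00859% without LPS replicate 1, 0.214% without LPS plus 3A2 replicate 2, 0.00859% without its replicate 3, and 0% in the others. LPS plus 3A2 replicate 2 held the highest of the 6 values for 11 of the 36 genes and the lowest for 0 (17.5% and 16.8% of all genes), and LPS replicate 3 held the highest for 11 and the lowest for 3 (17% and 16.9%).

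**Figure D1:**
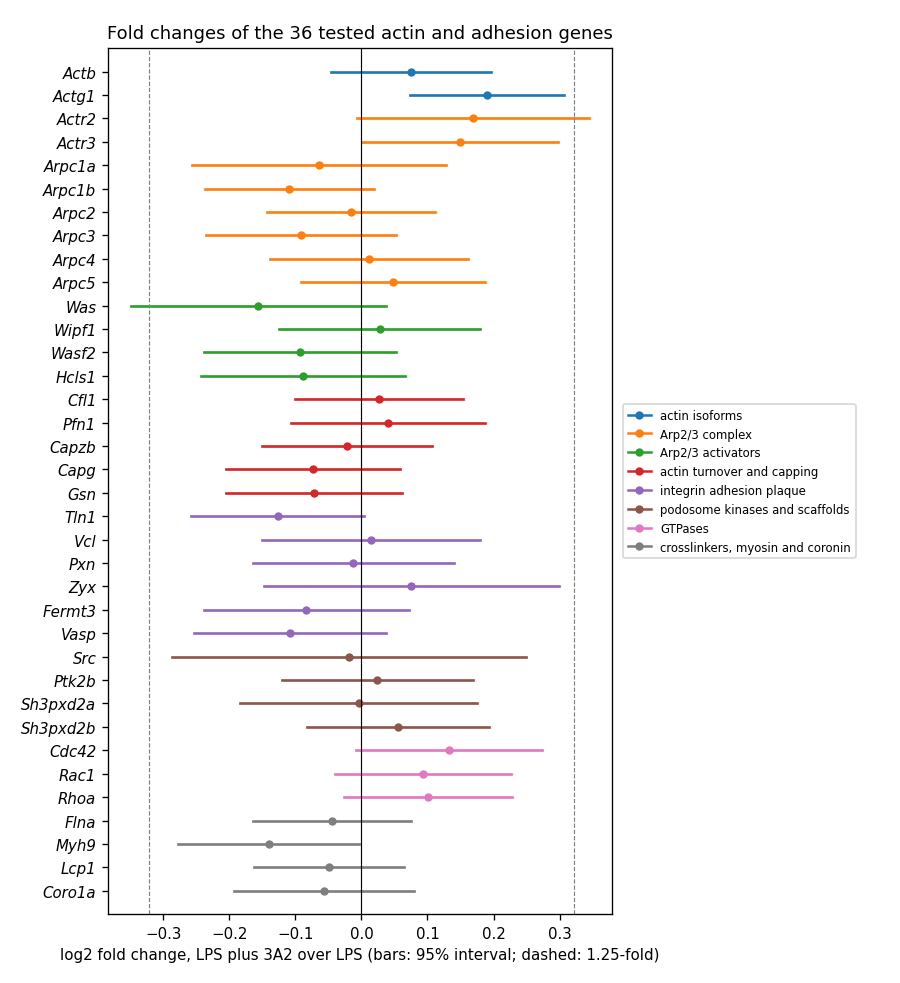
Log2 fold change of each tested gene, LPS plus 3A2 over LPS, on the horizontal axis (point) with its 95% interval (bar), coloured by role, for 3 libraries a group; dashed lines mark 1.25-fold. The bars of Actr2 and Was cross a dashed line, and those of Actg1, Actr3 and Myh9 do not reach 0.

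Levels across the set covered a wide range once divided by exon length. Actb, encoding β-actin, stood at 3631 ± 89.2 CPM per kilobase of exon with LPS (SD, n = 3), and Pfn1, encoding the monomer-binding protein profilin, came next at 806 ± 51.0. Actg1, encoding γ-actin, followed at 569 ± 2.86. Lcp1, encoding the leukocyte filament bundler L-plastin, and Cfl1, encoding the severing protein cofilin, stood at 439 ± 1.65 and 437 ± 15.1 CPM per kilobase, within their spread of each other. At the low end, the scaffold gene Sh3pxd2a and the kinase gene Src stood at 6.30 ± 0.459 and 5.37 ± 0.187 CPM per kilobase. The order of these 7 genes by their mean was the same with 3A2, except that Cfl1, at 445 ± 29.3, lay above Lcp1, at 425 ± 9.40, again within the spread.

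**Figure D2:**
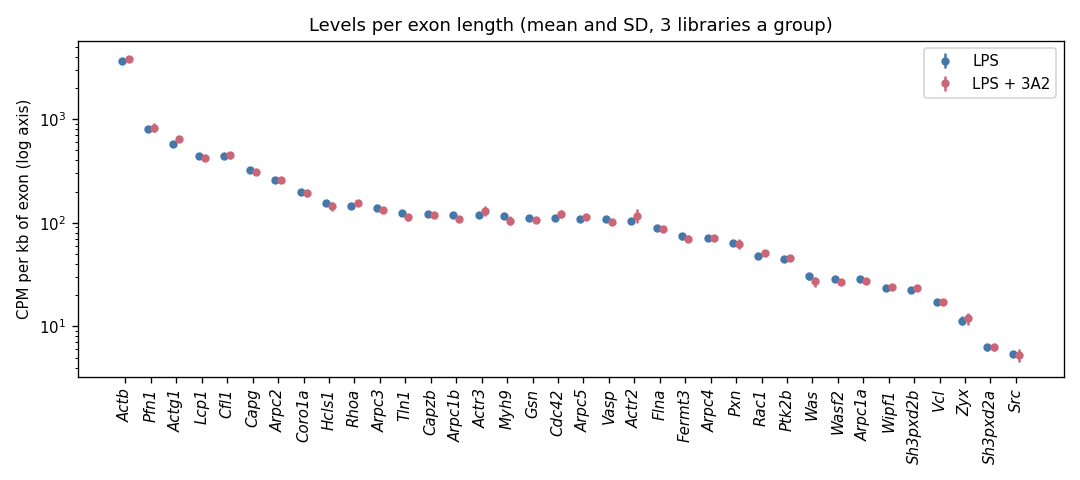
Level of each tested gene in CPM per kilobase of exon (log axis) with LPS and with LPS plus 3A2; points are means and bars the SD over 3 libraries. Genes are ordered by their level with LPS, from Actb at 3631 to Src at 5.37 CPM per kilobase, and the points of the groups lie side by side along the whole range.

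Of the actin isoforms, γ-actin had the clearest difference in the set and β-actin a smaller one. The cytoplasmic actins are near-identical proteins from separate genes, and both polymerize into filaments. Actg1 measured 1115, 1114 and 1105 CPM under LPS, and under 3A2 it was 1240, 1313 and 1249 CPM. All 3 libraries with 3A2 lay above all 3 with LPS, and the LPS libraries differed little among themselves. The fold change was 1.14 (95% interval 1.05 to 1.24), and by edgeR p was 0.00267 unadjusted and 0.719 adjusted. Actb measured 6947, 6813 and 7153 CPM under LPS, and under 3A2 it was 7340, 7822 and 6869 CPM, and here the groups overlapped through LPS plus 3A2 replicate 3. Its fold change was 1.05 (0.969 to 1.15, edgeR adjusted p = 0.831). Without LPS plus 3A2 replicate 3, Actb stood at 1.088-fold (1.025 to 1.154) and Actg1 at 1.149-fold (1.082 to 1.221), with edgeR adjusted p values of 0.781 and 0.0975. The groups did not overlap for either gene in that fit, nor for 21.6% of all genes. For both actins the values above already fix this outcome once that library is left out, so it adds no support.

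The share of Actg1 in the counts of both actin genes does not depend on the scaling between libraries. It was 13.83%, 14.05% and 13.38% under LPS and 14.45%, 14.38% and 15.39% under 3A2. The exact 95% binomial interval of a share, which covers counting error only, was 13.77% to 14.33% for the highest LPS library and 14.1% to 14.66% for the lowest library with 3A2. The group means were 13.75% ± 0.342 and 14.74% ± 0.562 (SD, n = 3), a difference of 0.987 percentage points, with all 3 libraries with 3A2 above all 3 with LPS. Without LPS plus 3A2 replicate 3, the highest library, the difference was 0.663 percentage points. An exact two-sided permutation test gave p = 0.1, the smallest that 3 against 3 libraries allow, and 0.4 adjusted over the 4 gene pairs compared in this way. The open reading frames of Actb and Actg1 are identical at 88.7% of 1128 positions in GENCODE M21, and their transcripts share no exact run of more than 62 bases, against reads of 150 bases. Both genes have processed copies elsewhere in the genome, and how reads that fit several copies were counted is not given, so their levels are uncertain to that extent.

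**Figure D3:**
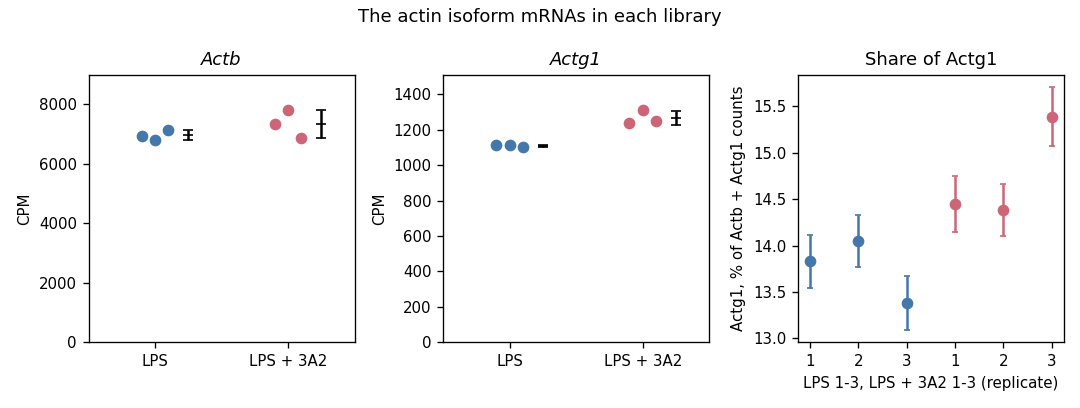
Left and middle: CPM of Actb and Actg1 in each library, with the mean and SD of each group beside the points (n = 3). Right: Actg1 as a percentage of the counts of both genes, with exact 95% binomial intervals; the libraries with 3A2 lie at 14.38% to 15.39% and those with LPS at 13.38% to 14.05%.

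Actin genes are textbook targets of serum response factor (SRF), which binds the CArG box and whose coactivators sense free actin monomers. Because Actg1 differed most in the set, its upstream sequence is shown with those of the other genes of the set that hold a CArG box, here written as 2 C, 6 bases that are A or T, and 2 G. RefSeq promoter windows (GRCm38.p6, 250 bases before to 50 after a gene's start) were found for 31 of the 37 genes. A CArG box was present in 3 of these 31 genes (9.68%), against 1.81% of 27025 genes with a window. The latter were not limited to genes tested here, and the set was chosen by function and holds actin genes. The shares are therefore a description only, and whether SRF had a part in the Actg1 difference was not tested. The motif reads the same on both strands, and Actb, Cttn, Pxn, Ptk2b, Sh3pxd2a and Rac1 had no window. Capitals mark the CArG box, and bases are given 5′ to 3′ on the gene's strand, ending at the base before the start, except that only the first 35 bases of the Arpc4 window are shown. In Actg1 (chr11:120348496-120348745, minus strand) the box begins 90 bases before the start:
Actg1: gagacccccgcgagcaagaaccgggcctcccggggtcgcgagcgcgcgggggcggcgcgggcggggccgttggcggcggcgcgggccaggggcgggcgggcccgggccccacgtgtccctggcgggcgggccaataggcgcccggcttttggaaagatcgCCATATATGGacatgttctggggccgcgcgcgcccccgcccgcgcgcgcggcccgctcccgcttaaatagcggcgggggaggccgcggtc
In Vcl (chr14:20929148-20929397, plus strand) it begins 227 bases before the start:
Vcl: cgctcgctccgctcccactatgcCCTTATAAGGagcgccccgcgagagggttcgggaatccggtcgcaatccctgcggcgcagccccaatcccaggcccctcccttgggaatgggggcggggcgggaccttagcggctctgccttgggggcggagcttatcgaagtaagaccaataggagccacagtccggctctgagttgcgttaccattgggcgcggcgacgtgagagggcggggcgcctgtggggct
In Arpc4 (chr6:113377863-113377897, plus strand) it is at the far edge of the window, 250 bases before the start:
Arpc4: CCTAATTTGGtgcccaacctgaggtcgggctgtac
Actg1 stood at 1.14-fold (1.05 to 1.24), Vcl at 1.01-fold (0.901 to 1.13) and Arpc4 at 1.01-fold (0.909 to 1.12). These intervals overlap, and the difference between the genes was not tested. A match is a description of the letters and not of a bound site.

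The genes of the Arp2/3 complex lay on both sides of 0. Of 8 subunit genes, 4 lay above 0 and 4 below, and 0 passed by edgeR over all genes. Actr2 and Actr3 encode the actin-related subunits that form the first units of the new branch. Actr3 measured 317, 301 and 314 CPM under LPS, and under 3A2 it was 328, 320 and 386 CPM. Every library with 3A2 lay above every LPS library, and replicate 3 stood far above the other libraries with 3A2. It stood at 1.11-fold (1.001 to 1.23, unadjusted p = 0.0483 and adjusted p = 0.748 by edgeR), and 1.04 (0.970 to 1.12) without replicate 3. Actr2, singled out after its values were seen, measured 364, 382.5 and 384 CPM under LPS, and under 3A2 it was 398, 377 and 497 CPM. The groups overlapped, and only replicate 3 with 3A2 lay well above the rest. It stood at 1.12-fold (0.995 to 1.27), and 1.03 (0.958 to 1.10) without that library.

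The remaining subunits are the ARPC proteins, which hold the complex together and seat it on the mother filament. Arpc2, the most abundant of them, measured 448, 473 and 472 CPM under LPS, and under 3A2 it was 482, 451 and 444 CPM, or 0.989-fold (0.906 to 1.08). Its groups overlapped. Arpc1a and Arpc1b encode alternative forms of 1 subunit, and Arpc1b supplied most of their counts. Arpc1b measured 363, 367 and 374 CPM under LPS, and under 3A2 it was 342, 357 and 325 CPM, at 0.927-fold (0.848 to 1.01), with all 3 libraries with 3A2 below those with LPS. Arpc1a measured 48.3, 45.0 and 47.4 CPM under LPS, and under 3A2 it was 42.5, 47.7 and 44.2 CPM, at 0.957-fold (0.837 to 1.09), and its groups overlapped. The share of Arpc1b in the counts of this pair was 88.7% ± 0.432 with LPS and 88.4% ± 0.496 with 3A2 (SD, n = 3, exact permutation p = 0.4, 0.667 adjusted over the 4 pairs). Arpc3 stood at 0.939-fold (0.850 to 1.04) and Arpc5 at 1.03-fold (0.938 to 1.14). Per kilobase of exon with LPS, the subunits ran from 28.7 CPM for Arpc1a to 259 CPM for Arpc2, and Actr2, Actr3, Arpc1b and Arpc5 lay close together at 104, 118, 118 and 110 CPM.

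Among the activators of the complex, the mRNA of cortactin was nearly missing and that of its blood-cell relative was abundant. Cortactin (Cttn) and HS1 (Hcls1) both bind the Arp2/3 complex and stabilize branches. Cttn counts were 0, 3 and 1 for LPS and 1, 2 and 0 for 3A2. Pooled, that is 0.193 CPM for LPS (exact Poisson 95% interval from 0.0526 to 0.495) and 0.159 CPM for 3A2 (from 0.0329 to 0.466). A count of 0 allows up to 0.438 CPM in LPS replicate 1 and 0.495 CPM in LPS plus 3A2 replicate 3. Divided by the total counts, 3A2 over LPS came to 0.825, and counting error alone allowed 0.121 to 4.88, so no difference could be seen at so few counts. Hcls1 measured 296, 304 and 332 CPM under LPS, and under 3A2 it was 299, 318 and 259 CPM. The groups overlapped, and the lowest library was replicate 3 with 3A2. Its fold stood at 0.941 (0.845 to 1.05), and 0.994 (0.920 to 1.07) without that library. Of the counts of both genes, Hcls1 took 99.94% ± 0.0669 with LPS and 99.95% ± 0.0484 with 3A2 (SD, n = 3, exact permutation p = 1, also after adjustment over the 4 pairs).

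Was, encoding the WASP protein that relays Cdc42 signals in blood cells, had the lowest fold change of the set at 0.898 (0.785 to 1.03, edgeR adjusted p = 0.791), and stood at 0.942 (0.832 to 1.07) without LPS plus 3A2 replicate 3. Wipf1, encoding the partner that protects WASP from degradation, stood at 1.02-fold (0.917 to 1.13). Wasf2, encoding the WAVE2 activator that works downstream of Rac, stood at 0.938-fold (0.848 to 1.04). Of the 4 activator genes tested, 1 lay above 0 and 3 below, and replicate 3 with 3A2 held the lowest value of all 6 libraries for all 4 of them.

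Genes of filament turnover and capping had fold changes from 0.951 to 1.03. Cfl1 measured 1100, 1054 and 1129 CPM under LPS, and under 3A2 it was 1126, 1182 and 1036 CPM. Its groups overlapped fully, at 1.02-fold (0.933 to 1.11). Pfn1 stood at 1.03-fold (0.929 to 1.14). Capzb, encoding a subunit of the protein that caps filament ends, stood at 0.985-fold (0.901 to 1.08). Capg and Gsn encode related calcium-dependent cappers, gelsolin (Gsn) also severing filaments, and stood at 0.951-fold (0.868 to 1.04) and 0.952-fold (0.868 to 1.04). The 95% intervals of all 5 genes lay within 1.25-fold.

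In the integrin plaque, 2 genes lay above 0 and 4 below, and none passed the test by edgeR over all genes. Talin (Tln1), which binds integrin tails and activates them, measured 1037, 1017 and 1060 CPM under LPS, and under 3A2 it was 957, 1025 and 869 CPM. The groups overlapped through LPS plus 3A2 replicate 2, and replicate 3 was the lowest library. Its fold change was 0.916 (0.836 to 1.003, unadjusted p = 0.0573 and adjusted p = 0.756 by edgeR), and 0.955 (0.897 to 1.02) without replicate 3. Fermt3, encoding kindlin-3, the talin partner of blood cells, stood at 0.944-fold (0.847 to 1.05). Vcl, encoding vinculin, which reinforces the link from talin to actin, stood at 1.01-fold. Paxillin (Pxn), a docking protein, stood at 0.991-fold (0.892 to 1.10). Zyxin (Zyx) and VASP (Vasp), which act together in filament growth at adhesions, stood at 1.05-fold (0.903 to 1.23) and 0.927-fold (0.839 to 1.03).

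Of the 8 roles, podosome kinases and scaffolds had the lowest median size of log2 fold change, 0.021, with all libraries used. Without LPS plus 3A2 replicate 3 this ranking did not hold. The log2 fold changes were then 0.082 for Src, 0.060 for Ptk2b, 0.057 for Sh3pxd2a and 0.063 for Sh3pxd2b. The median size over the whole set was 0.060 in that fit. Ptk2b, encoding the focal adhesion kinase relative PYK2 of macrophages, measured 174, 179 and 192 CPM under LPS, and under 3A2 it was 182, 197 and 175 CPM, at 1.02-fold (0.920 to 1.12). The groups overlapped. Src stood at 0.987-fold (0.820 to 1.19) and was the least abundant tested gene of the set, at 21.4 ± 0.746 CPM under LPS, and under 3A2 it was 21.1 ± 2.87 CPM (SD, n = 3). Tks5 (Sh3pxd2a) and Tks4 (Sh3pxd2b) are Src substrates that organize podosomes. Sh3pxd2a measured 69.4, 64.5 and 74.6 CPM under LPS, and under 3A2 it was 72.0, 72.3 and 63.3 CPM, at 0.997-fold (0.881 to 1.13). Sh3pxd2b measured 169, 164 and 168 CPM under LPS, and under 3A2 it was 168, 181 and 172 CPM, at 1.04-fold (0.945 to 1.14). The groups overlapped for both. Sh3pxd2b took 70.6% ± 1.24 of the counts of this pair with LPS and 71.5% ± 1.56 with 3A2 (SD, n = 3, exact permutation p = 0.5, 0.667 adjusted over the 4 pairs).

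The GTPase genes Cdc42, Rhoa and Rac1 all lay above 0, and all 3 were highest in LPS plus 3A2 replicate 3. Cdc42, the switch upstream of WASP, measured 336, 321 and 332 CPM under LPS, and under 3A2 it was 364, 329 and 392 CPM. The groups overlapped through replicate 2 with 3A2. It stood at 1.10-fold (0.994 to 1.21), and 1.05 (0.976 to 1.13) without replicate 3. Rhoa, which drives contraction through myosin, stood at 1.07-fold (0.982 to 1.17) and did not overlap between the groups, and stood at 1.05-fold (0.978 to 1.13) without that library. Rac1, which acts on the WAVE complex at the cell edge, stood at 1.07-fold (0.973 to 1.17). Their edgeR adjusted p values ran from 0.757 to 0.813.

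The crosslinker, myosin and coronin genes all lay below 0, in 4 of 4, where 50.4% of all genes lay above it. Myh9, encoding the heavy chain of non-muscle myosin IIA, measured 841, 859 and 882 CPM under LPS, and under 3A2 it was 808, 837 and 698 CPM. Every library with 3A2 lay below every LPS library, and replicate 3 lay far below the others. Its fold change was 0.907 (0.825 to 0.998, unadjusted p = 0.0457 and adjusted p = 0.748 by edgeR), and 0.956 (0.898 to 1.02) without replicate 3. Lcp1 measured 1847, 1841 and 1854 CPM under LPS, and under 3A2 it was 1827, 1784 and 1748 CPM. These groups did not overlap either, yet the fold change was 0.967 (0.894 to 1.05). Flna, encoding the crosslinker filamin A, stood at 0.970-fold (0.892 to 1.05). Coro1a, encoding coronin 1A, which acts on Arp2/3 branches in leukocytes, stood at 0.961-fold (0.875 to 1.06). With the GC trend described below removed, the log2 fold changes were 0.0089 for Coro1a, -0.0041 for Flna, -0.084 for Myh9 and -0.063 for Lcp1.

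LPS plus 3A2 replicate 3 held the lowest of the 6 values for 22 of the 36 genes and the highest for 6, against 27.5% of all genes for each. No other library was lowest for more than 6 of them. The 6 highest were Actr2, Actr3, Arpc5, Cdc42, Rac1 and Rhoa. The 22 lowest included Myh9, Tln1, Was, Hcls1, Pxn, Src and Coro1a. These sets differed in base composition, a measure chosen after the values were seen. The GC content of the longest coding transcript was 40.3% to 48.3% for the 6 genes and 46.6% to 59.3% for the 22. Across the 36 genes the deviation of replicate 3 from the other 5 libraries had a Pearson r of -0.861 with GC content (Spearman coefficient -0.84). Across the 10323 tested genes with a GC value it was -0.583 (Spearman coefficient -0.62). Other libraries also followed GC content, in the opposite direction: over the 36 genes r was 0.723 for LPS replicate 3, 0.615 for LPS plus 3A2 replicate 2 and 0.452 for LPS replicate 2. For LPS replicate 1 it was 0.0586 and for LPS plus 3A2 replicate 1 it was -0.22. Over all genes r was weaker, at 0.361 for LPS replicate 3, 0.372 for LPS plus 3A2 replicate 2 and 0.178 for LPS replicate 2. There it was -0.0363 for LPS replicate 1 and -0.108 for LPS plus 3A2 replicate 1. The deviations of these libraries are taken from a mean that includes LPS plus 3A2 replicate 3, so their values are not independent of it. Genes are not independent replicates, and all these points share the same libraries, so no p is given. The share of mitochondrially encoded mRNAs was also highest in LPS plus 3A2 replicate 3, and its part in these values was not tested.

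Without LPS plus 3A2 replicate 3, 21 of the 36 genes lay above 0 and 15 below. The fold changes of 5 genes crossed from below 1 to above it, to 1.053 for Pxn, 1.058 for Src, 1.04 for Sh3pxd2a, 1.006 for Arpc2 and 1.001 for Capzb. The intervals of all 5 still spanned 1. Several of the genes below 1 lay closer to it, with 0.995 for Coro1a, 0.981 for Capg, 0.982 for Gsn, 0.976 for Fermt3, 0.960 for Vasp, 0.966 for Wasf2, 0.965 for Arpc3 and 0.950 for Arpc1b. Some above 1 lay farther from it, with 1.12 for Zyx, 1.071 for Pfn1, 1.055 for Cfl1, 1.048 for Wipf1 and 1.044 for Arpc4, while Arpc5 lay at 1.008.

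**Figure D4:**
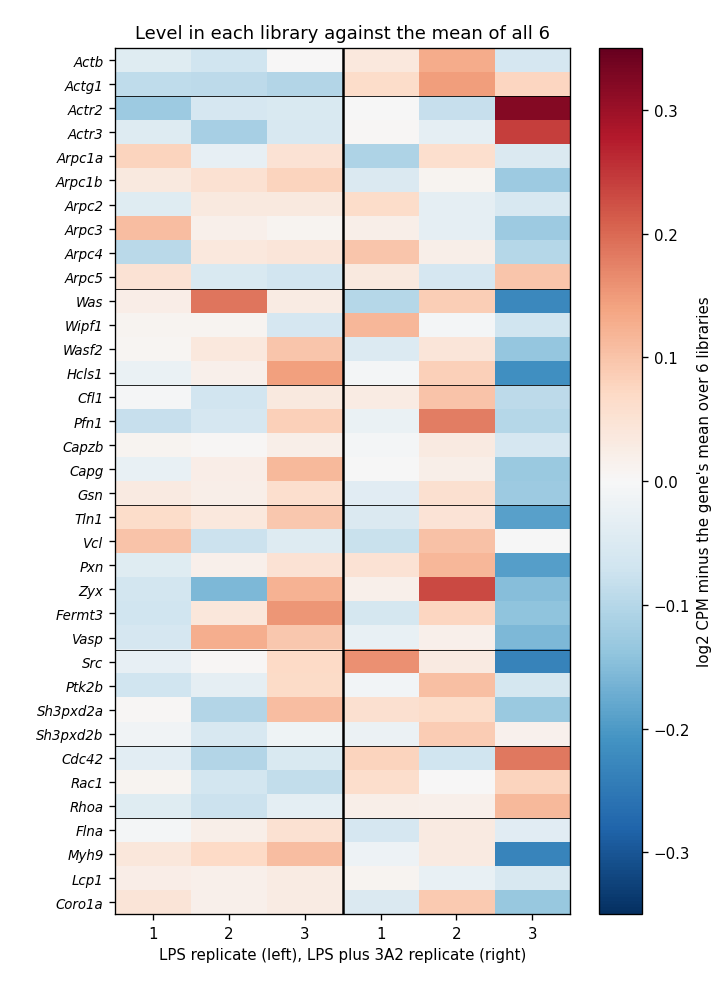
Log2 CPM of each tested gene in each library minus the gene's mean over the 6 libraries, with LPS replicates left and LPS plus 3A2 replicates right of the line; red is higher and blue lower. The last column, LPS plus 3A2 replicate 3, is the lowest of its row for 22 of the 36 genes and the highest for 6.

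**Figure D5:**
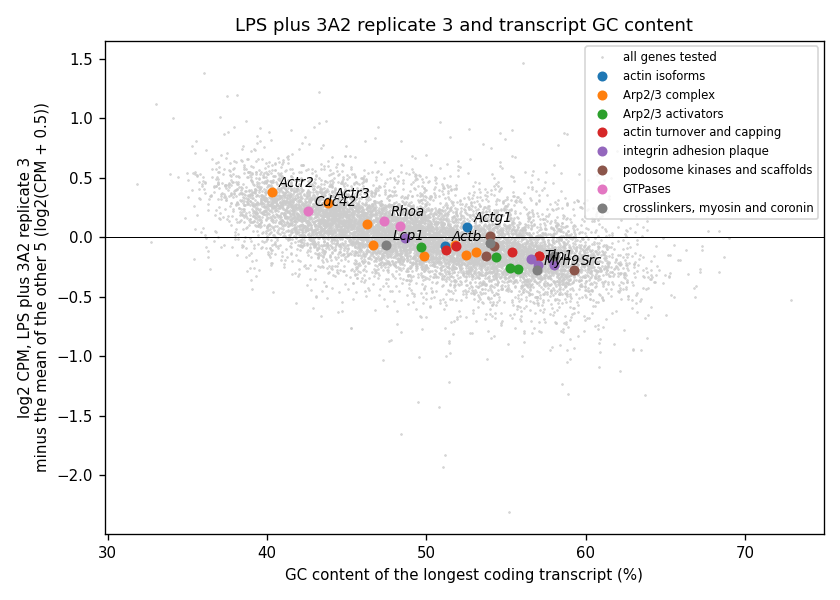
GC content of the longest coding transcript in percent against the deviation of LPS plus 3A2 replicate 3 from the mean of the other 5 libraries (log2 of CPM + 0.5); coloured points are the 36 genes by role and grey points all tested genes with a GC value. The coloured points descend from Actr2 at 40.3% GC to Src at 59.3% (r = -0.861).

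The smooth trend of each library on transcript GC content was then removed, an alternative chosen after seeing the data. Actg1 moved farther from 0, as did Actb, Arpc2, Arpc4, Wipf1, Cfl1, Pfn1, Zyx, Ptk2b, Sh3pxd2b and Lcp1. Pxn, Src and Sh3pxd2a crossed 0 and lay farther from it. The other genes, with Actr2, Actr3, Cdc42, Tln1 and Myh9 among them, moved closer to 0. Actr2 stood at 1.05-fold (0.981 to 1.12), Actr3 at 1.06-fold (0.997 to 1.13) and Cdc42 at 1.04-fold (0.982 to 1.11). Tln1 stood at 0.953-fold (0.905 to 1.004) and Myh9 at 0.944-fold (0.894 to 0.996). Actb stood at 1.067-fold (1.016 to 1.12, edgeR adjusted p = 0.388) with groups that did not overlap. Actg1 stood at 1.17-fold (1.11 to 1.23) and was the only gene of the set that passed, at an edgeR adjusted p of 0.00389, where 0.13% of all genes (15 of 11498) passed. Over all 14 alternatives its adjusted p ran from 0.00389 to 0.996 and its log2 fold change from 0.16 to 0.22, above 0 in each. At an unadjusted p under 0.05 this alternative gave 4 of the 36 genes, Actb, Actg1 and Pfn1 higher and Myh9 lower, against 8.78% of all genes. The groups did not overlap for 9, against 13.8% of all genes. In that fit replicate 3 with 3A2 held the lowest value for 9 of the 36 genes and the highest for 7, within the range of the other libraries. LPS replicate 2 held the lowest for 10 and LPS replicate 1 the highest for 8. The matching shares of all genes were not computed. The trend removed is one that replicate 3 with 3A2 followed, so its smaller number of lowest values is in part built into the fit.

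Other genes of the same processes, in lists picked by textbook function, held no gene that passed over all genes by edgeR, DESeq2 or limma-voom. The counts of each list here and below stand against those of all genes by edgeR. Of all genes, 50.4% lay above 0 and 6.51% had an unadjusted p under 0.05 (3.43% higher and 3.09% lower). Of 24 further genes of branched actin (Arp2/3 isoforms, the WASP family and the WAVE and WASH complexes), 13 lay above 0 and 11 below, their median was 0.0082 on the log2 scale, and 2 had an unadjusted p under 0.05. Washc1, encoding a WASH subunit that drives actin on endosomes, had the smallest p of them, at 0.790-fold (0.658 to 0.947), with 20.4 ± 0.245 CPM under LPS, and under 3A2 it was 16.1 ± 0.525 CPM (SD, n = 3). Its libraries with 3A2 all lay below those with LPS, at an edgeR adjusted p of 0.719. Cyfip1, a WAVE complex gene and the one with the highest CPM of the list, stood at 0.999-fold (0.913 to 1.09). The 44 further genes of turnover, capping, crosslinking and membrane linkage had 22 above 0 and 22 below, with a median of -0.00050 and 2 at an unadjusted p under 0.05. Plek, encoding pleckstrin, a phosphoinositide-binding protein of blood cells, had both the highest CPM of them and the smallest p, at 1.11-fold (1.01 to 1.21). It was highest in LPS plus 3A2 replicate 3, and its log2 fold change was 0.14, against 0.072 without that library and 0.067 with the GC trend removed.

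Formins, which elongate unbranched filaments, and Ena/VASP genes had 2 above 0 and 9 below of 11 tested, with a median of -0.049. By edgeR 1 of them had an unadjusted p under 0.05, against 6.51% of all genes. Fyb, encoding the adaptor ADAP, which binds VASP proteins, measured 238 ± 6.61 CPM under LPS, and under 3A2 it was 213 ± 6.37 CPM, at 0.892-fold (0.815 to 0.977, edgeR adjusted p = 0.719), and its groups did not overlap.

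Of 40 further adhesion and podosome genes, 23 lay above 0 and 17 below, with a median of 0.012 and 3 at an unadjusted p under 0.05. Ptpn6, encoding the phosphatase SHP-1, stood at 0.882-fold (0.802 to 0.970) and Vim, encoding vimentin, at 0.925-fold (0.849 to 1.01), a log2 fold change of -0.11 that was -0.059 without LPS plus 3A2 replicate 3. Further myosin genes had 4 above 0 and 10 below of 14, with a median of -0.036 and 1 at an unadjusted p under 0.05. LPS plus 3A2 replicate 3 was the lowest library for 9 of these 14, against 27.5% of all genes. Myh14, a scarce non-muscle myosin heavy chain at 3.10 ± 0.562 CPM with LPS, stood at 0.588-fold (0.359 to 0.961, edgeR adjusted p = 0.748), and Myo10, an unconventional myosin of filopodia, at 0.963-fold (0.881 to 1.05). Genes of SRF, its coactivators and contractile targets had 10 above 0 and 4 below of 14, with a median of 0.075 and 2 at an unadjusted p under 0.05, 1 in each direction. That list holds Actb, Actg1, Vcl, Flna and Zyx, so it is not separate from the set.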

How the data were processed

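RNA from 6 RAW264.7 cultures was depleted of ribosomal RNA and sequenced as strand-specific paired-end reads, per the labels' protocols. The authors deposited raw read counts per gene symbol, 1 column per library. HISAT2 and edgeR are named without version or role, per the submitters' processing notes. Which program counted, with what annotation and strand setting, is not given in the sources used here, so overlapping genes and near-identical copies are uncertain. The notes name the human build GRCh38 although the table lists mouse symbols, so no gene coordinates from the deposited data are printed. The promoter coordinates above are those of RefSeq on GRCm38.p6. Values in 3 unnamed columns were not used. 0 entries named no gene. Some withheld items are not reported here.

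Counts were filtered with filterByExpr, given TMM scaling, and the groups were compared in edgeR 4.0.16 under R 4.3.3 (quasi-likelihood, robust, two-sided) with Benjamini-Hochberg adjustment over all 11498 genes and a threshold of 0.05. Groups came from the labels. CPM values use the scaled totals, those of Cttn and of marker sums unscaled totals. All intervals are 95% intervals. Where no read was counted, up to 3 were allowed for. Exon lengths and transcript GC content (found for 89.8% of genes tested) came from GENCODE M21, and promoters from RefSeq. The genes of the set and all lists were chosen with earlier results of these data known. Genes named from other lists are those past the threshold, or else the one with the smallest p and the one with the highest mean CPM. Values per library are given for genes of the set with an unadjusted p under 0.05, the actins, the 4 pairs and the gene of each role with the highest mean CPM. Standard errors of the log2 fold change had a median of 0.068 in the set and 0.119 over all genes. No pair of libraries was identical. The test was tried on simulated counts. Alternatives used DESeq2 1.42.0 on the same filtered genes, limma-voom 3.58.1, other scalings and filters, the replicate number as a block, a threshold of 0.1, each library left out, and, added after the data were seen, the GC trend of each library removed by a lowess curve and an offset.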

Additional observations from a re-analysis of the deposited data

How the results depend on the processing

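The number of genes called over the whole table was 0 by edgeR, and it was 16 with no filter, 1 with the replicate number as a block, 15 with the GC trend removed, and 0 to 25 with each library left out. Genes of the set called were 1 with the GC trend removed and 0 under the other alternatives. Those at an unadjusted p under 0.05 were 6 with no filter (6.16% of all genes), 1 with DESeq2 (3.3%) and 1 with the replicate block (5.32%). With each library left out they were 1 to 10 (3.92% to 15% of all genes). Those whose groups did not overlap were then 6 to 17 (19.8% to 31.3%). The upper ends, in the set and over all genes, came without LPS plus 3A2 replicate 2. The deviations of same-numbered libraries had correlations of -0.0102, 0.0253 and -0.163 for replicates 1, 2 and 3. Only replicate 2 had its own number as its best partner. These values cannot tell whether the numbers pair the cultures. The cause of these changes was not tested. Log2 fold changes close to 0 changed sign. With the GC trend removed they were 0.0042 for Capzb, 0.052 for Pxn, 0.055 for Src, 0.035 for Sh3pxd2a and 0.0089 for Coro1a. Sh3pxd2a was 0.00015 with no filter. Cyfip1 was 0.0022 with no filter and 0.0011 when mitochondrial genes and the top 20 genes were taken out of the totals. With each library left out, ranges were -0.052 to 0.0080 for Arpc2, -0.034 to 0.062 for Arpc4, -0.043 to 0.0022 for Capzb, -0.018 to 0.077 for Cfl1, -0.044 to 0.099 for Pfn1, -0.024 to 0.064 for Ptk2b, -0.076 to 0.074 for Pxn, -0.056 to 0.057 for Sh3pxd2a, -0.11 to 0.082 for Src, -0.035 to 0.071 for Vcl, -0.024 to 0.068 for Wipf1, -0.031 to 0.16 for Zyx and -0.041 to 0.018 for Cyfip1. The other tested genes named kept their direction in all 14 alternatives, apart from Coro1a, and the shares within gene pairs moved by less than their spread with each library left out. Cttn and Mmp14 are limited by depth.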

Other observations

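Genes of the other filament systems of the cell, microtubules, septins and intermediate filaments, had 10 above 0 and 15 below of 25 tested. Their median was -0.019 (log2), with 0 past the threshold by edgeR, DESeq2 or limma-voom. At an unadjusted p under 0.05 by edgeR there were 2, both lower, against 6.51% of all genes (3.09% lower). Dync1h1, encoding the heavy chain of the microtubule motor dynein, had the smallest p. It stood at 835, 859 and 869 CPM under LPS, and at 759, 823 and 689 CPM under 3A2. All 3 libraries with 3A2 lay below those with LPS, at 0.886-fold (95% interval 0.808 to 0.973, edgeR adjusted p = 0.719). Its log2 fold change was -0.17, and -0.11 without LPS plus 3A2 replicate 3, its lowest library. Vim, the gene of the list with the highest CPM, stood at 2695 ± 59.9 CPM under LPS, and at 2493 ± 164 CPM under 3A2 (SD, n = 3). LPS plus 3A2 replicate 3 was the lowest library for 15 of the 25 genes, against 27.5% of all genes tested.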
